A study of Mus musculus with 12 samples.

Results

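The genes described here make cholesterol or set how much of it a cell makes: 20 enzymes of the mevalonate and sterol pathway, 4 genes that control the transcription factor SREBP2 (Srebf2, Scap, Insig1 and Insig2), and 4 genes of sterol movement inside the cell (Stard4, Npc1, Npc2 and Tmem97). They were listed by function and read by symbol from a table of 24499 genes. All 28 were found, and 25 passed a filter on low counts and were tested. The cells came from lymph nodes draining E0771-cOC tumours, grown from a murine breast carcinoma line, 9 days after the injection. Nodes were digested and passed over beads for CD11c, the integrin of dendritic cells and some macrophages, and 3' end sequencing gave 6 libraries from wildtype C57BL6 mice and 6 from APOE-KO mice, which lack apolipoprotein E, and both genotypes carried the tumour. The sources used here do not give the ages of the mice, how the knockout allele was made or whether each library came from its own mouse, so p-values measure only the spread between these libraries, which may be technical.

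Cells build cholesterol in the endoplasmic reticulum from acetyl-CoA, by way of mevalonate, squalene and lanosterol. Scap senses the sterol content of that membrane: when sterols are scarce, it escorts the membrane-bound factor SREBP2 to the Golgi, where it is cut and freed to activate the genes of the pathway, and when sterols are plentiful, the Insig proteins hold Scap back. Cholesterol also arrives with lipoproteins, many of which use apolipoprotein E as the ligand for their receptors, and leaves the lysosome through Npc2 and Npc1. Phagocytes such as macrophages and dendritic cells take up much of their cholesterol in this way.

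Libraries held 2381477 to 4898360 reads, and Apoe, read first as a check of the labels, had 10722 reads summed over wildtype and 122 summed over APOE-KO. Of 10714 genes tested with edgeR's quasi-likelihood test, 44 were lower and 116 higher in APOE-KO at an adjusted p under 0.05 (35 and 53 when libraries were scaled by their totals alone). Markers of conventional dendritic cells summed to 3422 to 4656 CPM (read counts scaled to library size) in wildtype and 3712 to 4661 CPM in APOE-KO. Most of this was the 1 gene H2-Ab1, whose wildtype mean was 3058 of the 4043 CPM held by the whole list. For the APOE-KO libraries its mean was 3028 of 4094 CPM. The sums therefore say little about the other markers of the list. The ribosomal RNA gene Rn45s took from 2.71% of reads (wildtype library 3) to 32.2% (wildtype library 1). Those libraries and APOE-KO library 5 stood apart over all genes in earlier work on these data, and the count of called members is given with and without them. In bulk samples, fewer cells of a type and less RNA per cell cannot be told apart.

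The members that passed the test act on squalene and on lanosterol. Cyp51, which removes a methyl group from lanosterol, and Sqle, the epoxidase that commits squalene to sterols, were lower in APOE-KO, by 1.71-fold and 2.72-fold. These were 2 of the 25 tested members, against 0.411% of all tested genes called lower. No member was called higher, against 1.08% of all genes; Npc2 alone was higher at an unadjusted p under 0.05 in edgeR, and DESeq2 and limma-voom also called none. At an unadjusted p under 0.05, 10 members were lower and 1 was higher, against 5.81% and 6.27% of all genes. The median log2 fold change (APOE-KO over wildtype) was -0.43 over the tested members and -0.018 over all tested genes. It was negative in 20 of the 25 members and in 52.7% of all genes. Without wildtype libraries 1 and 3 and APOE-KO library 5 together, 2 members were again called lower, Cyp51 and Stard4 in place of Cyp51 and Sqle, and 19 of 25 were negative, with a median of -0.26. With the mean level of epithelial markers, described with the other cell markers, as a covariate, the median was -0.034, with 15 of 25 negative.

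**Figure D1:**
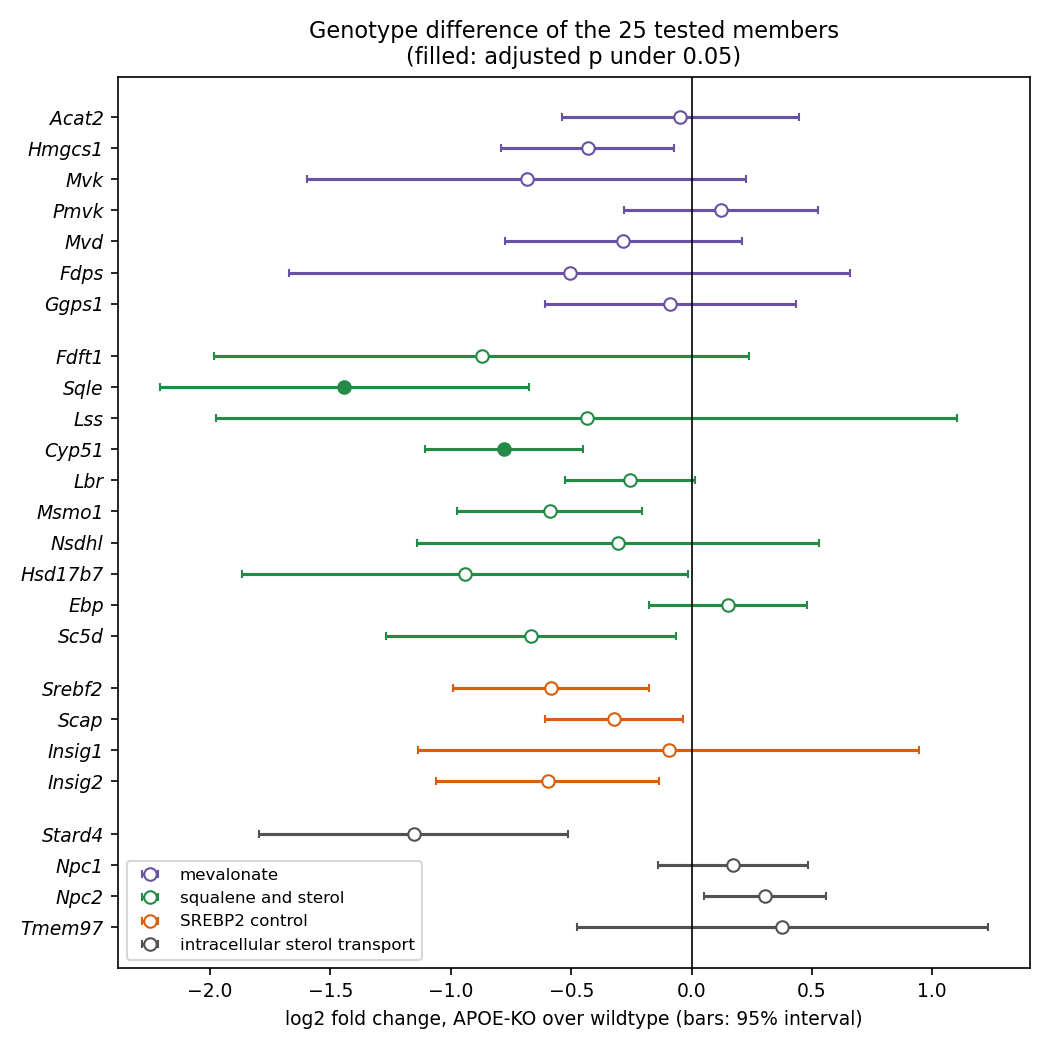
Log2 fold change (horizontal axis, APOE-KO over wildtype) of the 25 tested members, in pathway order from top to bottom, with 95% intervals. The filled points, Sqle and Cyp51, passed an adjusted p of 0.05; 20 points lie left of 0, and Npc1, Npc2 and Tmem97 lie right of it at the bottom.

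The control regions of 4 members are shown because SREBP2 acts through such regions: Cyp51 passed the test, Insig1 and Insig2 are the paired brakes on SREBP2, and Hmgcs1 alone held the sterol regulatory element searched for. RefSeq's table (GRCm38.p6) had entries for 23 of the 28 members, not for Sqle, Fdps, Fdft1, Stard4 and Npc1, with 29 start sites in all. Each sequence runs from 250 bases before to 50 bases after a start site, 5′ to 3′ on the gene's strand. Capitals mark matches on either strand to the sterol regulatory element TCACNCCAC, to the NF-Y box CCAAT or to the Sp1 box GGGCGG. They come from chr13:119690101-119690400 (Hmgcs1, plus strand), chr5:4104648-4104947 (Cyp51, minus strand), chr5:28071162-28071461 (Insig1, plus strand) and chr1:121332540-121332839 (Insig2, minus strand, the most upstream of its 3 start sites).
Hmgcs1: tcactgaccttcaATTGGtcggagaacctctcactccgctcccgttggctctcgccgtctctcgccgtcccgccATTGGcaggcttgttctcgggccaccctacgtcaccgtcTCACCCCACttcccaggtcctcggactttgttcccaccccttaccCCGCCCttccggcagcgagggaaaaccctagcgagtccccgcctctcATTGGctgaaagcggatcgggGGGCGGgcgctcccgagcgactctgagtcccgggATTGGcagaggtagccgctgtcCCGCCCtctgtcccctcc
Cyp51: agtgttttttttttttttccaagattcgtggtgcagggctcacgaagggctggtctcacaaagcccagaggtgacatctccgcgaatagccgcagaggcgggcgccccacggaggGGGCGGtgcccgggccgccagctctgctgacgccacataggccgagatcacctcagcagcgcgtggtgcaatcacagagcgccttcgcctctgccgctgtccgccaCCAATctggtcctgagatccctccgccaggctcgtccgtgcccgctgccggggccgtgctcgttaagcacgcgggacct
Insig1: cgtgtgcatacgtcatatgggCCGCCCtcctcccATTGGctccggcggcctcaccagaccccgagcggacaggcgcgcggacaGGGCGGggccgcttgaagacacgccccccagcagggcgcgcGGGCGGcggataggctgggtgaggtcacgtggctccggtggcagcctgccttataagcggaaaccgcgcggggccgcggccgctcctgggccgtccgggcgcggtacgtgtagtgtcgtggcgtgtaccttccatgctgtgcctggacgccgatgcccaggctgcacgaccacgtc
Insig2: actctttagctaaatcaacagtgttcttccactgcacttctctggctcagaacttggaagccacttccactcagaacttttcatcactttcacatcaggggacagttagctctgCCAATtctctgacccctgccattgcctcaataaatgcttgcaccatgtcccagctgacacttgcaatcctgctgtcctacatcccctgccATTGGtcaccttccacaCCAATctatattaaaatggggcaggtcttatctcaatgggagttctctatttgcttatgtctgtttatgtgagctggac

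The element TCACNCCAC was found in 1 of the 29 windows, that of Hmgcs1, 137 bases before the start, and in 1.24% of all 32851 windows in the table. CCAAT was found in 21 of the 29 windows (37.4% of all windows) and GGGCGG in 24 (35.7%). No match of one motif shared a base with a match of another. Looser forms of these motifs were not searched, so a window without a match says only that these letters are not in it.

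The mevalonate steps come first in the pathway. Acat2, the cytosolic thiolase that joins acetyl-CoA units, averaged 15.9 ± 2.89 CPM over the wildtype libraries and 15.5 ± 2.26 CPM over the others (SD, n = 6 per genotype), with an interval of the log2 fold change of -0.54 to 0.45. Hmgcs1, the HMG-CoA synthase that feeds mevalonate synthesis, ran from 76.7 through a median of 98.5 to 120.8 CPM in the wildtype libraries and from 54.0 through 69.0 to 112.4 CPM in the APOE-KO libraries. APOE-KO library 4 held the highest of these APOE-KO levels, and the other 5 lay at or below 77.3 CPM, just above the lowest wildtype library. The log2 fold change of Hmgcs1 was -0.43 ± 0.17 (SE), with an adjusted p of 0.302 in edgeR's test.

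None of the other mevalonate enzymes passed the test. The kinases that phosphorylate mevalonate had log2 fold changes of -0.69 (Mvk, 9.41 ± 3.72 and 5.93 ± 2.82 CPM) and 0.12 (Pmvk, 52.6 ± 17.99 and 57.1 ± 6.90 CPM). Without wildtype library 3 or APOE-KO library 5 the value for Mvk was -0.45. Mvd, which makes isopentenyl pyrophosphate, had 28.8 ± 7.64 and 23.6 ± 7.14 CPM, and all its 9822 bases overlap Gm20388 on the other strand. Idi1, the isomerase of the next step, was below the filter, with 13 reads over wildtype and 15 over APOE-KO. Of the prenyl synthases, Fdps, which makes farnesyl pyrophosphate, had 6.51 ± 4.58 and 4.68 ± 2.72 CPM. Ggps1, which lengthens it for protein prenylation, had 21.7 ± 4.84 and 20.5 ± 6.89 CPM. Most of the Fdps gene, 7512 bases with its 3' end among them, is shared with Gm43738 on the same strand. Over the 7 tested mevalonate enzymes the median log2 fold change was -0.28.

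Sqle is sensitive to sterols both through SREBP2 and through degradation of its protein. Its levels ran from 7.77 through a median of 11.4 to 16.9 CPM in wildtype and from 2.30 through 3.94 to 5.91 CPM in APOE-KO. Every APOE-KO library lay below every wildtype library. The log2 fold change was -1.44 ± 0.37 (SE), with an adjusted p of 0.0482 in edgeR's test. The call rested on 266 and 100 reads. Of the 12 fits that left out 1 library, only those without wildtype library 1 or 2 kept it (adjusted p up to 0.155), and the adjusted p was 0.0539 without the 3 libraries that stood apart.

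Cyp51 ran from 71.5 through a median of 102.4 to 122.3 CPM in wildtype and from 40.1 through 58.5 to 67.0 CPM in APOE-KO. Here too no APOE-KO library reached the lowest wildtype library, wildtype library 5. Cyp51 and Sqle were the 2 members with groups that did not overlap, both lower, against 0.541% of all genes. The log2 fold change of Cyp51 was -0.78 ± 0.16 (SE), with an adjusted p of 0.00949 in edgeR's test, and it passed in each of the 12 fits without 1 library (adjusted p 0.00605 to 0.0334). On GRCm38 the gene lies at chr5:4081145-4104746 on the minus strand, and its last 166 bases overlap Akap9 on the other strand. Akap9 had 161 ± 70.2 CPM in wildtype and 136 ± 29.0 in APOE-KO (log2 fold change -0.24, adjusted p = 0.781), and whether reads were counted by strand is not given.

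**Figure D2:**
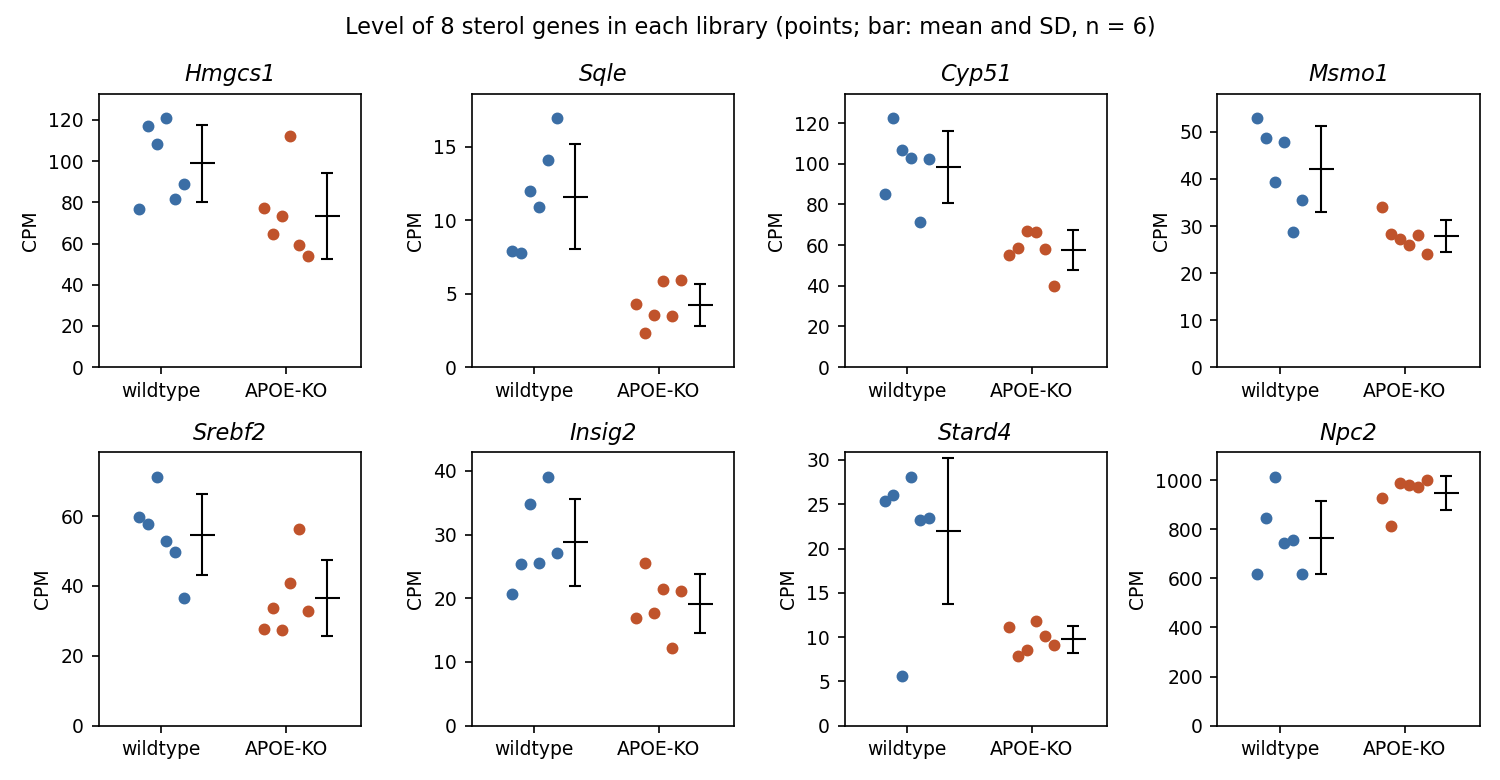
CPM (vertical axes, from 0) of 8 members in each of 6 wildtype and 6 APOE-KO libraries, with mean and SD beside the points. For Sqle and Cyp51 all APOE-KO points lie below all wildtype points; for Stard4, wildtype library 3 at 5.57 CPM lies below every APOE-KO point.

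None of the enzymes around these steps passed the test. Msmo1, the methyl oxidase that acts after Cyp51, ran from 28.8 through 43.6 to 52.9 CPM in wildtype and from 24.0 through 27.6 to 34.0 CPM in APOE-KO. Of the wildtype libraries only library 5 lay within the APOE-KO range (log2 fold change -0.59 ± 0.19 SE, adjusted p = 0.143). Hsd17b7, the ketoreductase of the same demethylation, had 11.5 ± 6.13 and 5.97 ± 2.97 CPM and an adjusted p of 0.403. Its partner Nsdhl, a decarboxylating dehydrogenase, had 10.1 ± 4.73 and 8.14 ± 4.54 CPM. Sc5d, the desaturase near the end of the pathway, had 26.0 ± 8.48 and 16.1 ± 7.41 CPM and an adjusted p of 0.348.

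Ebp, the sterol isomerase, was the one sterol enzyme with a positive log2 fold change, at 0.15 (64.4 ± 6.47 and 71.6 ± 16.4 CPM). Lbr, a protein of the inner nuclear membrane with sterol reductase activity, had 182 ± 24.9 and 152 ± 20.4 CPM, and its last 440 bases overlap Dnah14 on the other strand. Its relative Tm7sf2 and the final reductase Dhcr7 were below the filter, with 27 and 25 reads and 82 and 64 reads over the wildtype and APOE-KO libraries. Fdft1, squalene synthase, had 165 and 86 reads and a log2 fold change of -0.87 with an interval of -1.98 to 0.24. Its last 774 bases overlap the protease gene Ctsb on the other strand, which was itself higher in APOE-KO (489 ± 60.8 to 742 ± 70.7 CPM, adjusted p = 0.00443). Lss, which closes the sterol rings, had 73 and 47 reads and a log2 fold change of -0.44 ± 0.75 (SE), which ran from -1.10 without APOE-KO library 3 to -0.17 without APOE-KO library 5. Over the 10 tested enzymes after farnesyl pyrophosphate the median log2 fold change was -0.63, with 9 of the 10 negative.

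The 4 genes of SREBP2 control all had negative log2 fold changes, and none passed the test. Srebf2, which encodes SREBP2 and hosts the microRNA gene Mir33, ran from 36.7 through a median of 55.4 to 71.2 CPM in wildtype and from 27.3 through 33.4 to 56.2 CPM in APOE-KO. APOE-KO library 5 was the highest of its genotype with the next at 40.9 CPM, and wildtype library 6 was the lowest of its own. The log2 fold change of Srebf2 was -0.58 ± 0.20 (SE), with an adjusted p of 0.176 in edgeR's test, or 0.0434 without APOE-KO library 5. Scap, the escort protein, ran from 80.9 through 90.8 to 120.5 CPM in wildtype and from 64.7 through 75.7 to 83.0 CPM in APOE-KO (log2 fold change -0.32 ± 0.14, adjusted p = 0.344). For Scap the groups overlapped by a narrow margin, with APOE-KO libraries 1 and 6 above wildtype library 5.

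Insig2, which like Insig1 retains Scap in the endoplasmic reticulum, ran from 20.6 through 26.3 to 39.1 CPM in wildtype and from 12.1 through 19.4 to 25.6 CPM in APOE-KO (log2 fold change -0.60 ± 0.22 SE, adjusted p = 0.242). Insig1, itself a target of SREBP2, had 102 and 93 reads, 4.25 ± 1.62 and 4.00 ± 2.25 CPM, and an interval of the log2 fold change of -1.13 to 0.94. That interval includes both no change and the value of Insig2, and the difference between the pair was not tested. Summed over the 4 control genes, wildtype libraries held 162 to 233 CPM and APOE-KO libraries 125 to 140 CPM, as the plot of summed levels shows. None of the 4 genes separated the genotypes by itself. Scap (means of 93.5 CPM in wildtype and 74.9 in APOE-KO) and Srebf2 (54.7 and 36.5 CPM) held most of the sum. How often sums of other genes separate the genotypes was not tested.

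**Figure D3:**
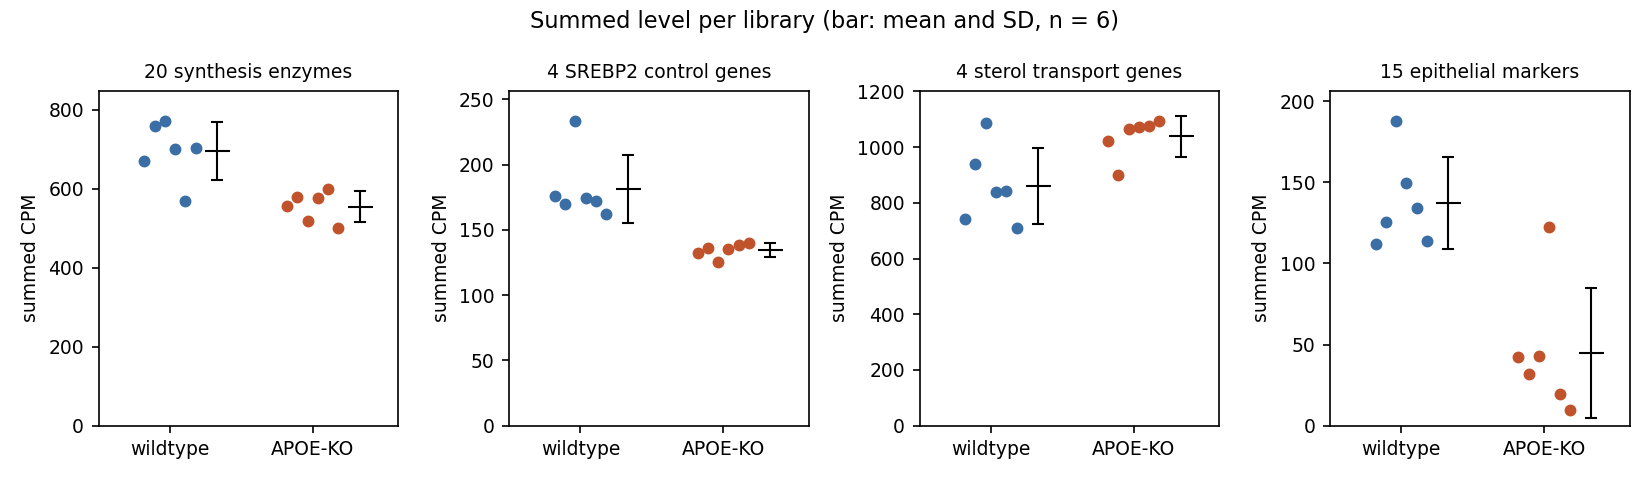
Summed CPM (vertical axes, from 0) per library of 3 groups of members and of the epithelial markers, with mean and SD, n = 6 per genotype. The SREBP2 control sums do not overlap between genotypes (162 to 233 and 125 to 140 CPM), though the groups overlap for each of the 4 genes. APOE-KO library 4, at 122.3 CPM, is the one APOE-KO library within the wildtype range of epithelial markers.

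None of the 4 genes of sterol transport passed the test, and 3 of them had positive log2 fold changes. Stard4, a soluble sterol carrier induced by SREBP2, held 23.3 to 28.1 CPM in 5 wildtype libraries, 5.57 CPM in wildtype library 3, and 7.88 to 11.8 CPM in APOE-KO. A single wildtype library therefore set the overlap of the groups. The log2 fold change of Stard4 was -1.15 ± 0.31 (SE), with an adjusted p of 0.0652 in edgeR's test, or -1.35 with an adjusted p of 0.00185 without wildtype library 3. With all libraries in, DESeq2 called Stard4 (adjusted p = 0.0261), and limma-voom gave -0.83 with an adjusted p of 0.394.

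Npc2, the soluble lysosomal protein that hands cholesterol to Npc1, ran from 617 through 750 to 1013 CPM in wildtype and from 815 through 975 to 1000 CPM in APOE-KO. Wildtype library 3 held the highest level of all, above the APOE-KO range, and wildtype library 2 lay within that range. The log2 fold change of Npc2 was 0.31 ± 0.12 (SE), with an adjusted p of 0.296, or 0.0464 without wildtype library 3. Npc1, the membrane transporter, had 66.1 ± 13.7 and 74.0 ± 7.24 CPM (adjusted p = 0.726), and its last 967 bases overlap Rmc1 on the other strand. Tmem97, an SREBP2 target that binds Npc1, had 6.15 ± 3.01 and 7.94 ± 2.69 CPM (adjusted p = 0.797).

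**Figure D4:**
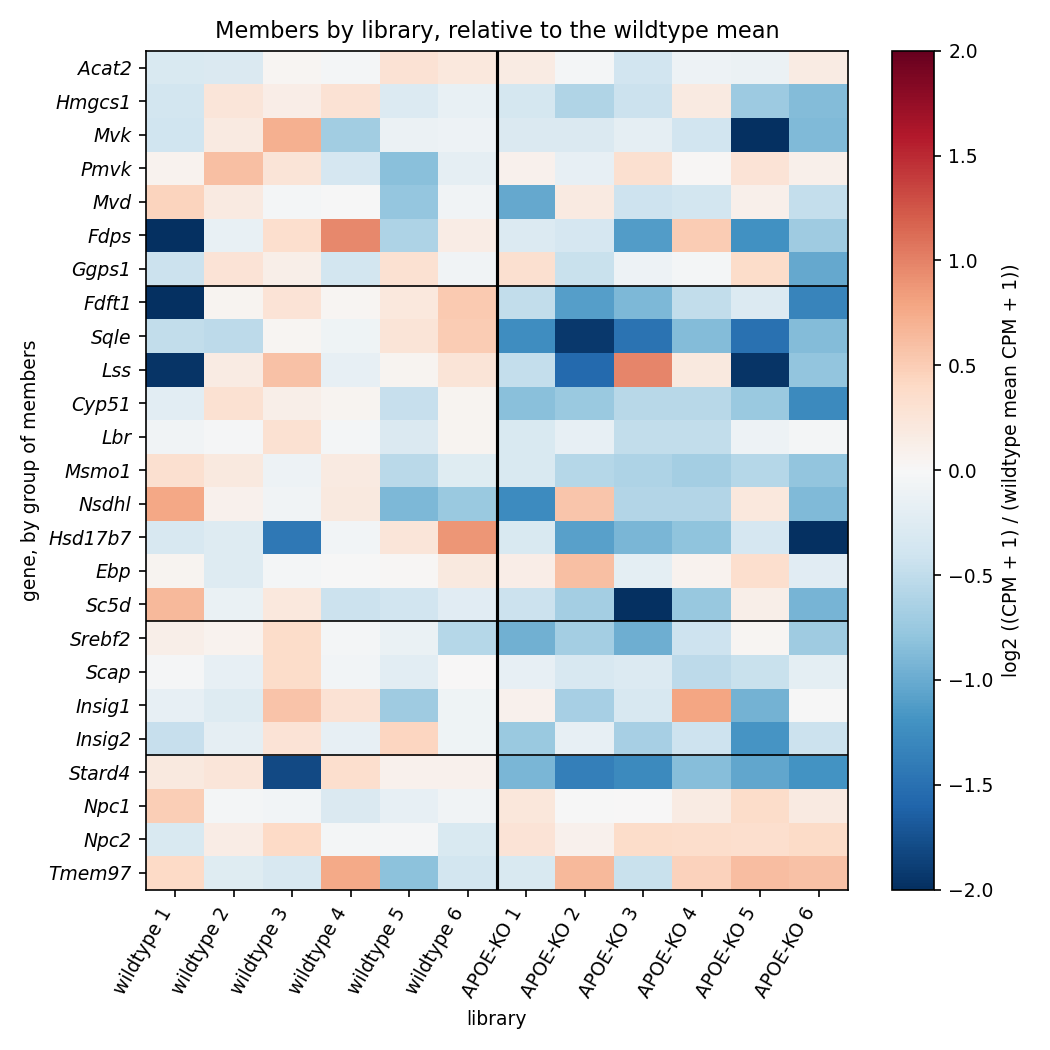
Each of the 25 tested members (rows, by group) in each library (columns), as log2 of CPM plus 1 over the wildtype mean plus 1; blue is lower, red higher, and values beyond 2 are drawn at 2. Sqle, Cyp51 and Stard4 are blue across the APOE-KO columns. Other rows, among them Msmo1, Scap and Insig2, also lie below the wildtype mean in every APOE-KO library. Wildtype library 1 is blue for Fdps, Fdft1 and Lss, which had no reads there.

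Among themselves, the members did not follow one library order. In wildtype, library 3 was the highest for 7 tested members, among them Srebf2, Scap and Insig1, and library 5 the lowest for 9, among them Cyp51, Msmo1 and Scap. In APOE-KO, library 6 was the lowest for 7, among them Hmgcs1, Cyp51 and Msmo1, and library 4 the highest for Hmgcs1, Fdps, Insig1 and Stard4. The sum over the 20 enzymes ran from 569 to 772 CPM in wildtype and from 500 to 600 CPM in APOE-KO, with wildtype library 5 alone inside the APOE-KO range.

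Markers of other cells moved with the genotype as well. All 15 epithelial markers had reads in wildtype, and in APOE-KO Krt17 and Esrp1 had none. Over the wildtype libraries these 2 genes had only 3 and 53 reads, and both were below the filter. Summed over all 15 epithelial markers, the level was 112 to 188 CPM in wildtype and 9.70 to 122 CPM in APOE-KO (two-sided exact permutation p = 0.00649, adjusted p = 0.039 over 12 marker lists). Migratory dendritic cell markers summed to 1694 to 2370 CPM in wildtype and 2353 to 3354 CPM in APOE-KO (two-sided exact permutation p = 0.00433, adjusted p = 0.039). Of the 7 epithelial markers tested singly, 1 was called lower, the cadherin Cdh1, and 4 of the 5 migratory dendritic cell markers were called higher. Sums for the other 10 lists had adjusted p of 0.0519 or more by the same exact test, but by mean log2 CPM macrophage (adjusted p = 0.0173), plasmacytoid dendritic cell (0.0325) and endothelial (0.0416) markers were also lower in APOE-KO. Macrophage markers summed to 925 to 1116 CPM in wildtype and 708 to 976 CPM in APOE-KO. Of the 8 tested singly, the scavenger receptor Marco (242 ± 53.5 and 82.8 ± 16.3 CPM), Timd4 and Mrc1 were called lower and the complement gene C1qb higher. Of 6 plasmacytoid dendritic cell markers, Siglech and Cox6a2 were called lower, and of 8 conventional dendritic cell markers, Sirpa was called higher. Proliferation markers held 542 to 776 and 498 to 591 CPM.

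With the mean of the epithelial markers as a covariate, neither Cyp51 (log2 fold change -0.49, adjusted p = 0.992) nor Sqle (-1.02, adjusted p = 0.999) passed in edgeR's test, and 25 of all genes did. In APOE-KO library 4, whose epithelial sum lay within the wildtype range, Cyp51 stood at 66.4 CPM and Sqle at 5.89 CPM, both below every wildtype library, while Hmgcs1 stood at 112 CPM, above 4 wildtype libraries. Epithelial marker level and genotype cannot be told apart in these libraries, and 1 library does not separate them. The part of macrophages and of migratory or plasmacytoid dendritic cells in the levels of the members was not tested.

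Further genes of the pathway were read from lists of neighbouring functions. The lists read were SREBP processing and turnover (which by a slip also held Lmf1, a lipase maturation factor), acetyl-CoA and ketone supply, non-sterol branches, electron donors of the sterol enzymes, and sterol esterification and exchange. Of their 56 genes 54 were tested and 0 passed in edgeR, DESeq2 or limma-voom, with 2, 3 and 6 at an unadjusted p under 0.05. In edgeR, 1294 of all 10714 tested genes had an unadjusted p under 0.05. That count over all genes was not taken for DESeq2 or limma-voom. Over all genes edgeR called 0.411% lower and 1.08% higher, so no call among 54 is near the background. The median log2 fold change of the 54 was -0.047. Srebf1, the relative of Srebf2 that serves fatty acid synthesis, had 17.3 ± 6.35 and 24.6 ± 6.18 CPM (adjusted p = 0.474). Erlin1, which assists sterol-triggered turnover in the endoplasmic reticulum, had a log2 fold change of -0.28 (adjusted p = 0.485).

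Among suppliers of carbon, Acss2, which makes acetyl-CoA from acetate, had 90 and 190 reads over wildtype and APOE-KO (log2 fold change 0.92 ± 0.44 SE, adjusted p = 0.408). Its highest wildtype library (5.66 CPM) lay below its lowest APOE-KO library (5.91 CPM). It was the 1 gene of the 54 with groups that did not overlap, against 190 of all 10714 tested genes in either direction. Of the non-sterol branches, Zmpste24, a protease of prenylated proteins, had a log2 fold change of -0.57, and Chm, the escort of Rab proteins during prenylation, of 0.45. The electron donor Cyb5r3 and the heme-binding scaffold Pgrmc1 stood at 0.24 and 0.36. Lipa, the lysosomal lipase that frees cholesterol from its esters, had 44.96 ± 13.2 and 69.6 ± 16.5 CPM (log2 fold change 0.63 ± 0.21, adjusted p = 0.159). Osbpl5, a sterol-binding transfer protein, had a log2 fold change of -0.77 (adjusted p = 0.456).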

How the data were processed

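For 12 libraries (6 per genotype), prepared per the labels with Lexogen's 3' FWD kit, the authors deposited raw read counts by gene symbol. The submitters' processing notes name STAR 2.7.8a, featureCounts 1.5.1, R 4.1.0, DESeq2 1.4 and build mm10. None of the annotation, the strand setting, the treatment of multiply matching reads and the use of molecular identifiers is given in these sources. Totals of 2381477 to 4898360 reads, multiplied by the TMM factors of the fit described next, put 3 reads at 0.522 to 1.59 CPM. This covers counting error only.

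In R 4.3.3, edgeR 4.0.16 kept genes with filterByExpr (minimum count 10, total 15), scaled libraries by TMM and tested genotype with glmQLFit and glmQLFTest, with Benjamini-Hochberg adjustment over all 10714 genes and a threshold of 0.05. The SE is the log2 fold change over the square root of F, and intervals are 95%. Marker sums were compared by exact permutation over 924 assignments. Alternatives were other scalings and filters, DESeq2 1.42.0, limma-voom (limma 3.58.1), an epithelial covariate, a replicate block and fits without 1 library. The fit was tested on simulated data. The smallest chi-square per degree of freedom between libraries of a genotype was 6.70, so no library was taken for a duplicate. Positions are from GENCODE vM21 (GRCm38), on which 11 of the 28 members overlap an opposite-strand gene and 4 a gene of their own strand, and promoters from RefSeq.

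All 28 members are named; of the neighbouring lists, the genes that passed and the 2 with the smallest p of each list, of which some are not reported here. The Hmgcs1 promoter was chosen after its match was seen, and neighbouring genes for their overlap. The members and lists were chosen with earlier results of these data known. Replicate numbers are shared between genotypes, but the labels do not say that they pair the libraries.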

Additional observations from a re-analysis of the deposited data

Results flagged for a closer look

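In 8 of 82 sets of 6 libraries (28 members, Apoe and 12 marker lists in each genotype), the highest or lowest library lay farther from the rest than Dixon's 95% limit allows. For independent values with a normal spread, chance flags about 1 set in 20. These sets share libraries and some hold few reads, so that rate may not hold here. Wildtype library 1 had 3 member genes out of range: Fdft1 at 0 CPM (7.02 to 10.2 CPM in the other wildtype libraries), Tm7sf2 at 5.29 CPM (0 to 1.94) and Npc1 at 93.1 CPM (54.1 to 64.2). The same library held 2802 CPM of plasmacytoid dendritic cell markers (1230 to 1678). Wildtype library 3 had Scap at 120.5 CPM (80.9 to 94.3) and Stard4 at 5.57 CPM (23.3 to 28.1), so it was high for one SREBP2 gene and low for an SREBP2 target. Among APOE-KO libraries, library 4 held 122.3 CPM of epithelial markers (9.70 to 42.9), and library 6 held 128.3 CPM of NK cell markers (18.3 to 36.4).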

How the results depend on the processing

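Of 22 alternatives, 21 kept Cyp51 past the threshold and 6 kept Sqle; neither passed with the epithelial covariate, which ended both calls (0 members lower). With a replicate block, 1 member was lower (Cyp51, while Sqle had an adjusted p of 0.122), and 100 genes passed, 70 of them higher. After each gene's genotype mean was subtracted from its log2 CPM, same-numbered libraries correlated at -0.077 to 0.018. By these correlations no wildtype library matched its own number best. Library totals alone and limma-voom also gave 1 member lower, and leaving out each library gave 1 to 2 lower (the fits giving 1 lacked wildtype 4, 5, 6 or APOE-KO 1, 2, 3, 4, 6) and 0 to 1 higher (Npc2, without wildtype library 3). Over all genes, 160 passed, with 99 to 230 (27 to 64 lower, 72 to 166 higher) without 1 library; the lowest counts, 99 in all and 72 higher, were without APOE-KO library 3, and lower genes numbered 27 without that library or wildtype library 5, and 29 without APOE-KO library 6. Totals alone gave 88 (53 higher), DESeq2 272 (90 lower, 182 higher), the epithelial covariate 25 (9 lower, 16 higher), and no filter 68 lower. Of 12 marker lists, 2 differed by sum and 5 by mean log2 CPM (also macrophage, plasmacytoid dendritic cell and endothelial).

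No member past the threshold changed sign. Among the others, the epithelial covariate gave positive log2 fold changes for Hmgcs1 (0.25), Fdps (0.91), Ggps1 (0.31), Lss (1.51), Insig1 (0.96) and Zmpste24 (0.028); the cause was not tested. Insig1 was also positive without the 3 libraries that stood apart (0.25, an alternative chosen after seeing the data). Without 1 library, signs varied for Acat2 (-0.099 to 0.022), Pmvk (-0.0014 to 0.28), Ggps1 (-0.20 to 0.056) and Insig1 (-0.41 to 0.11). Sizes without a call also moved: without 1 library, Lss ran from -1.10 to -0.17 (-1.23 with limma-voom), Fdps from -0.84 to -0.15, Nsdhl from -0.58 to -0.085 and Tmem97 from 0.24 to 0.66, and Mvk was -0.27 without the 3 libraries. Idi1, Tm7sf2, Lss, Dhcr7, Insig1, Fdft1 and Fdps had the fewest reads, which limits their precision; Lss, Fdft1 and Fdps overlap another gene at the 3' end, and its part in their counts was not tested.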
